A study of Mus musculus with 36 samples.

Results

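The nuclear Nduf genes encode most subunits of respiratory complex I and several of the factors that assemble it, and their transcripts were followed around the day in the livers of mice exposed to chronic intermittent hypoxia (IH). A gene was taken as a member when its symbol started with Nduf, when it stood once in each of the 2 expression tables, and when its mean over all 36 libraries was at least 1 FPKM (sequenced fragments per length of transcript and per library size). All 45 Nduf symbols met these terms, out of 24066 symbols listed once. All 45 were also among the 13215 genes whose mean was 0.1 FPKM or more on which every test was run. The libraries came from whole livers of wild-type male C57BL/6JRj mice aged 16 weeks, with free access to chow and a cycle of light and darkness in which ZT0 is lights on. The IH mice received 60 cycles of hypoxia and reoxygenation per hour, with a nadir of 5% and a peak of 21% inspired oxygen, from ZT0 to ZT8 each day for 4 weeks. Control mice received matched cycles of air. Livers were taken every 4 h, at ZT0, ZT4, ZT8, ZT12, ZT16 and ZT20, with 3 libraries per group. Whole tissue was sequenced, so fewer cells of a type and less RNA per cell cannot be told apart in any value below.

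Complex I, the NADH:ubiquinone oxidoreductase of the inner mitochondrial membrane, passes electrons from NADH to ubiquinone and pumps protons that drive ATP synthesis. Its N module oxidizes NADH through a flavin and a chain of iron-sulfur clusters, its Q module reduces ubiquinone, and the proximal and distal parts of its membrane arm carry the proton channels. In hepatocytes it receives the NADH made by fatty acid oxidation and the citric acid cycle. The transcripts encoded by mitochondrial DNA, which supply the core of the membrane arm, were not analysed here. The members comprised 8 genes of the N module, 8 of the Q module, 9 of the proximal and 11 of the distal membrane arm, 7 assembly factors, and the pair Ndufa4 and Ndufa4l2. Ndufa4 is now counted with complex IV, and Ndufa4l2 is a related protein known as a target of hypoxia-inducible factor.

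The median member had a mean of 98.6 FPKM, and 21 members were at 100 FPKM or more, 15 between 20 and 100, and 9 under 20. Ndufa4 was the most abundant, at 604.7 FPKM. It was followed by Ndufa3, an accessory subunit, at 279.3 FPKM, and Ndufb9, an accessory subunit of the distal arm, at 278.2 FPKM. The lowest were Ndufaf5, an assembly factor that hydroxylates the subunit Ndufs7, at 1.28 FPKM, Ndufa4l2 at 1.89 FPKM, and Ndufaf7, an assembly factor with methyltransferase activity, at 4.51 FPKM. For 9 members more than 5% of the 50-base words of their transcripts also occur in another annotated gene. The share was 35.5% for Ndufs3, a core subunit of the Q module, and 37.0% for Ndufb4, so their levels may hold reads of these copies. The kit kept the strand of the RNA, but the counting setting is not given in the sources used here, and 18 members overlap an annotated gene on the opposite strand.

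The start regions of the genes the results turn on are shown first, beside how often known motifs of respiratory chain and clock gene promoters occur in them. RefSeq promoters of mouse build GRCm38.p6, from 250 bases before to 50 after the start, were found for 39 of the 45 members and for 32851 entries in all. Both strands were searched for 7 motifs. The NRF1 core GCATGCGC stood in 5 of the 39 (12.8%) against 2.71% of all promoters, and the YY1 core AAGATGGCG in 5 (12.8%) against 1.4%. The ETS core CCGGAAG also stood in 5 of the 39, against 8.86% of all promoters. The estrogen-related receptor motif AAGGTCA stood in 3 (7.7%) against 4.72%, and the cyclic AMP response element TGACGTCA in 3 (7.7%) against 1.79%. The E-box CACGTG, the site of the clock proteins CLOCK and BMAL1, stood in 2 (5.1%) against 7.15%, and the D-box TTANGTAA in 0 of 39 against 2.32%. At least 1 motif was found in 21 of the 39. Matches on the 2 strands can overlap, and each promoter entry was counted once per motif in the share of all promoters. Members were counted once per gene, from 41 entries of the 39 genes, so the 2 shares differ in unit. A match is a run of letters and not a bound site. The stretches below show 1 match each in capitals with 30 bases on either side, on the strand of the gene. Ndufaf4 is shown for its day course in both conditions, and Ndufa6 because its difference between conditions turned between ZT4 and ZT12. Ndufb2 is another member with such a turn, and Ndufv1, the flavin-binding core subunit, is shown for its E-box.
Ndufaf4, chr4:24897942-24898009, plus strand, NRF1 core: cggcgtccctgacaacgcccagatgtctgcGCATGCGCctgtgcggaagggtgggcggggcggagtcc
Ndufa6, chr15:82354337-82354404, minus strand, NRF1 core: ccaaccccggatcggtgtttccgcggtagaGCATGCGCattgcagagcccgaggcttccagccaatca
Ndufb2, chr6:39592354-39592420, plus strand, receptor motif: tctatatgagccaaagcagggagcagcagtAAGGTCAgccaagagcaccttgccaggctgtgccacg
Ndufv1, chr19:4012889-4012954, minus strand, E-box: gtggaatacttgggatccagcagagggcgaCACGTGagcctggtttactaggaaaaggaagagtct

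In 3 libraries the acute phase transcript Saa1 exceeded 10000 FPKM, at 22865 in IH ZT0 replicate 2, 20546 in control ZT12 replicate 2 and 12912 in control ZT16 replicate 3, against 19.1 to 2470 in the other 33. The summed FPKM of control ZT12 replicate 2 was 808274, against 561964 to 626371 in the other 35 libraries. Defining hepatocyte markers summed to 92735 FPKM there and to 55633 to 79413 in the 33 libraries without high Saa1, Kupffer cell markers to 441 against 46.0 to 145.8, and leukocyte markers to 209.5 against 1.59 to 8.53. Their part in the values of the members was not tested. The members of control ZT12 replicate 2 stood apart with it, and 37 of the 45 were at their highest of 36 libraries and 2 at their lowest. Against the other control ZT12 mice their median log2(FPKM + 1) difference was 0.56, with 38 of 45 above 0, while the median over 13116 genes with a known length was -0.19. Ndufa2, an accessory subunit of the N module, was at 491.7 FPKM in this library and at 146.5 and 113.6 FPKM in the other ZT12 controls. Ndufs1, the large iron-sulfur core subunit, was at 19.7 FPKM against 41.0 and 39.2. Transcript length moved with the difference, with a Pearson r with log2 length of -0.37 across the 45 members and -0.40 across all genes, all from the same 3 libraries. For longest transcripts under 1000 bases the median difference was 0.61 in 22 members and 0.49 in all genes of that length. Between 1000 and 2000 bases it was 0.66 in 16 members and 0.07 in all genes. The library by library plot of member medians shows the same library at the top of the control ZT12 group. The main counts below are therefore also given without these 3 libraries.

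**Figure D1:**
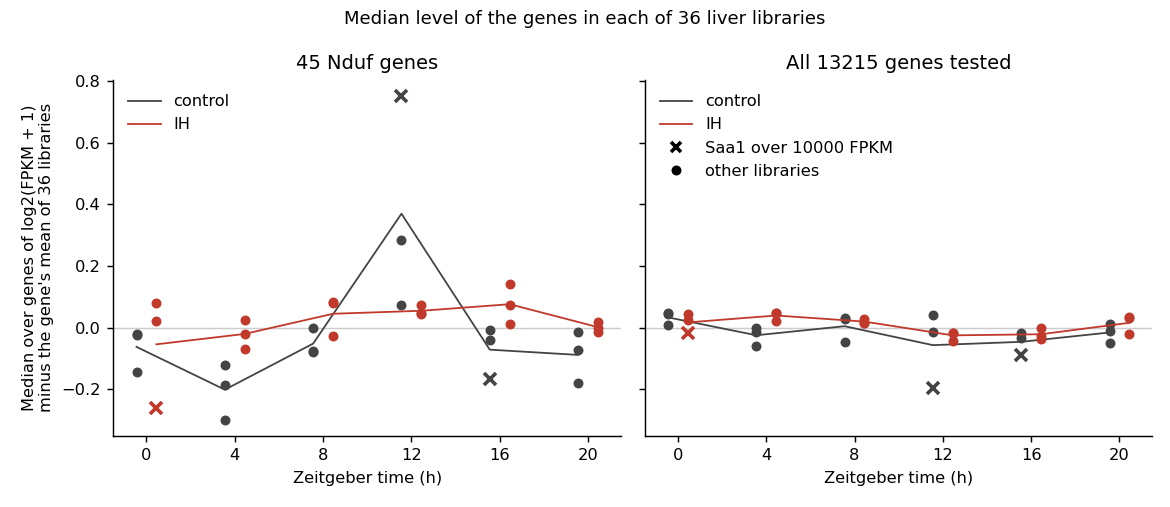
Each point is 1 library and plots the median over the 45 Nduf members (left) or all 13215 genes tested (right) of log2(FPKM + 1), centred per gene on its mean over 36 libraries, against Zeitgeber time (h), with lines through the mean of the 3 libraries and crosses for Saa1 above 10000 FPKM. In the members, control libraries lie between -0.30 and -0.12 at ZT4 and between 0.07 and 0.75 at ZT12, and IH libraries lie between -0.07 and 0.14 from ZT4 to ZT16.

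**Figure D2:**
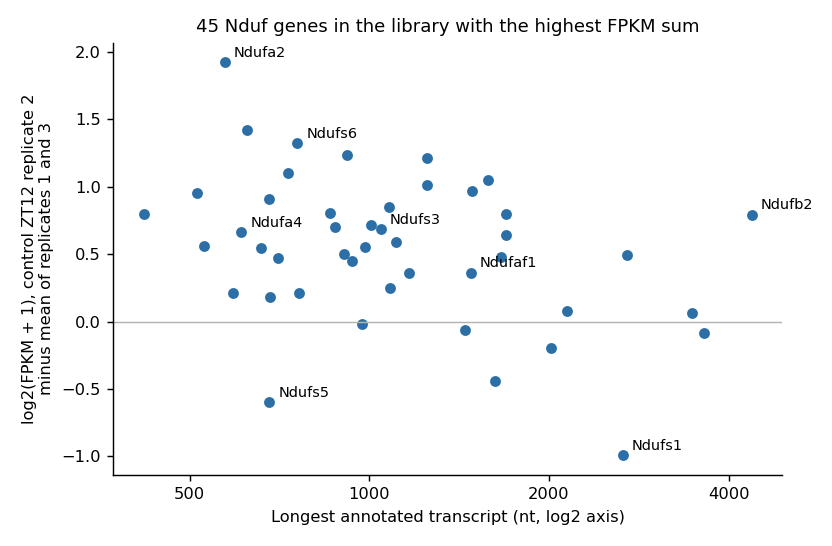
Each point is 1 of the 45 Nduf members and plots the log2(FPKM + 1) difference of control ZT12 replicate 2 from the other ZT12 control libraries against the length of the longest transcript (nt, log axis). Members under 1000 bases have a median difference of 0.61, and the 7 of 2000 bases or more one of 0.07.

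A few members carried a 24-h rhythm in each condition, and most of these were the same genes. A cosine of 24 h was fitted within each condition by limma on log2(FPKM + 1), and a nominal P of 0.01 or less was called rhythmic, the threshold used by the study. In control livers 7 of 45 members (15.6%) were called, against 20.0% of all genes tested. In IH livers 7 (15.6%) were called, against 39.9% of all genes. The IH share lay below that of all genes with this scaling and above it with the median of ratios, which called 23 members (51.1%) against 40.2% of all genes. Ndufaf4, Ndufaf6, Ndufs3, Ndufa5 and Ndufv2 were called in both, Ndufc2 and Ndufs4 in control, and Ndufaf5 and Ndufb9 in IH. Without the 3 high-Saa1 libraries, 15 members were called in control against 27.4% of all genes, and 8 in IH against 42.4%, and all 7 remained in each condition. The added control calls were Ndufa10, Ndufa9, Ndufaf1, Ndufb10, Ndufb5, Ndufb6, Ndufs1 and Ndufv1, and the added IH call was Ndufa12. By role, with all libraries, the rhythmic members in control were 2 of 8 in the N module, 2 of 8 in the Q module, 1 of 9 in the proximal arm, 0 of 11 in the distal arm and 2 of 7 assembly factors. Without the 3 libraries these counts were 4, 3, 2, 3 and 3.

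The assembly factor Ndufaf4, which takes part in early assembly of the Q module, gave the largest day course among the rhythmic members. It lies at chr4:24898083-24905001 (mm10, plus strand). Control livers had 5.70, 4.82 and 5.91 FPKM at ZT4 and 10.9, 11.0 and 12.5 FPKM at ZT12. IH livers had 6.29, 6.56 and 7.51 FPKM at ZT4 and 11.9, 13.4 and 12.7 FPKM at ZT12. The ZT4 and ZT12 libraries did not overlap in either condition, and the high-Saa1 library at control ZT12 lay between the other mice of its group. The fitted peak was at ZT13.9 in control (adjusted p = 0.00525, amplitude 0.375) and at ZT13.7 in IH (adjusted p = 0.000777, amplitude 0.355), where the amplitude is the height of the cosine above its mean on the log2 scale. The stretch with the NRF1 core printed above starts the core 111 bases before the gene's annotated start.

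Ndufaf6 (chr4:11051045-11076205, minus strand), an assembly factor needed early in the build of the Q module, had a similar course at a similar level. Its values were 6.42, 7.52 and 6.75 FPKM at ZT4 and 11.3, 12.9 and 10.2 FPKM at ZT12 in control. In IH they were 6.50, 6.85 and 7.21 FPKM at ZT4 and 10.4, 8.68 and 9.73 FPKM at ZT12. The groups at these times did not overlap in either condition, and the fitted peaks were at ZT12.0 (adjusted p = 0.0137) and ZT13.7 (adjusted p = 0.00145).

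Among the subunits, Ndufs3 (chr2:90894634-90904827, minus strand) was rhythmic in both conditions, with peaks at ZT12.1 in control (adjusted p = 0.0252) and ZT11.1 in IH (adjusted p = 0.00446). Control livers had 96.4, 106 and 88.5 FPKM at ZT4 and 142, 206 and 115 FPKM at ZT12, the 206 being the high-Saa1 library. IH livers had 105, 104 and 111 FPKM at ZT4 and 129, 125 and 116 FPKM at ZT8, where the IH mean was highest. The 2 conditions were therefore highest at neighbouring times, 4 h apart. Ndufa5 (chr6:24518666-24528013, minus strand), an accessory subunit of the Q module, was at 76.4, 74.8 and 73.8 FPKM at ZT4 and 129, 198 and 115 FPKM at ZT12 in control. In IH it was at 85.9, 91.7 and 96.8 FPKM at ZT4 and 109, 108 and 111 FPKM at ZT12. All 3 IH values lay above the control values at ZT4 and below them at ZT12. Its amplitude was 0.310 in control (adjusted p = 0.0401) and 0.166 in IH (adjusted p = 0.00806).

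Ndufv2 (chr17:66078638-66101559, minus strand), an iron-sulfur core subunit of the N module, had amplitudes of 0.241 in control (adjusted p = 0.0382) and 0.116 in IH (adjusted p = 0.0165). Ndufc2 (chr7:97400003-97407802, plus strand), an accessory subunit of the proximal arm, had amplitudes of 0.227 in control (adjusted p = 0.00457) and 0.120 in IH (adjusted p = 0.0501). Ndufs4 (chr13:114287795-114388258, minus strand), an accessory subunit that stabilizes the N module and whose loss causes Leigh-like disease in mice, had amplitudes of 0.272 in control (adjusted p = 0.0485) and 0.0818 in IH (adjusted p = 0.0465). In IH the nominal P of Ndufc2 and Ndufs4 lay above the threshold. Each of these amplitudes was larger in control, but the difference between the rhythms was not called for any of them.

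**Figure D3:**
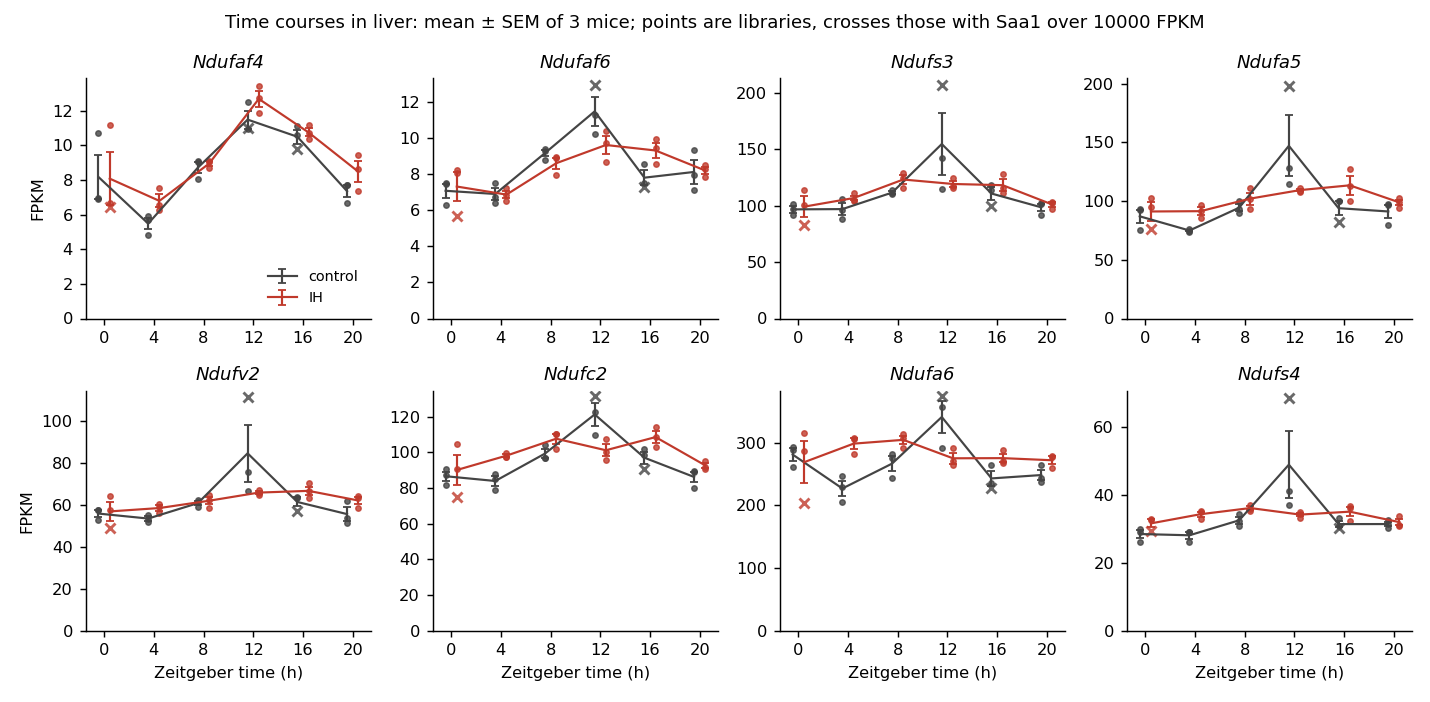
Mean FPKM with SEM (n = 3 libraries per mean) and single libraries against Zeitgeber time (h) for 8 named members in control and IH. Crosses mark the libraries with Saa1 above 10000 FPKM. Ndufaf4 and Ndufaf6 are highest at ZT12 in both conditions, while Ndufa6, Ndufs4 and Ndufc2 run from their lowest control mean at ZT4 to their highest at ZT12 with smaller folds between means in IH.

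Ndufaf5 stood apart from the other rhythmic members in its fitted time. Its peak in IH was at ZT21.0 (adjusted p = 0.00681, amplitude 0.123), at levels close to 1 FPKM where the log2(FPKM + 1) scale understates change, and its control fit gave an adjusted p of 0.907. Over all members, called or not, the fitted peak fell between ZT10 and ZT16 for 38 in control and 33 in IH, with medians of ZT12.4 and ZT12.5, and without the 3 libraries for 39 and 30. The median amplitude of the members was 0.176 in control and 0.082 in IH, while over all genes it was 0.124 and 0.123. Amplitude was larger in control for 38 of 45 members, against 46.5% of all genes. Without the high-Saa1 libraries the medians were 0.134 and 0.062 and the count was 39, against 43.4% of all genes. Without control ZT12 replicate 2 alone the medians came closer, at 0.111 and 0.082, while over all genes they were 0.111 and 0.123. The count was then 36, against 40.8% of all genes. After a trend with transcript length and GC content was removed from each library the count was 29, against 45.5% of all genes. With the trend and the 3 libraries removed together it was 39, against 45.5%. With quantile normalization it was 32, against 45.2%, and with the median of ratios 40, against 46.8%. The test of the rhythm difference itself (cosine by condition) called 0 of 45 members, against 0% of all genes. By limma 0 members and 649 genes (4.91%) had an unadjusted P under 0.05, and the lowest adjusted p of a member was 0.92. Without the 3 libraries 4 members had an unadjusted P under 0.05 and the lowest adjusted p was 0.392. The share of all genes at that unadjusted threshold is not given here, so the 4 have no background. After adjustment 0 members were called in that setting, against 0% of all genes. The members share libraries, so their counts do not add independent evidence.

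**Figure D4:**
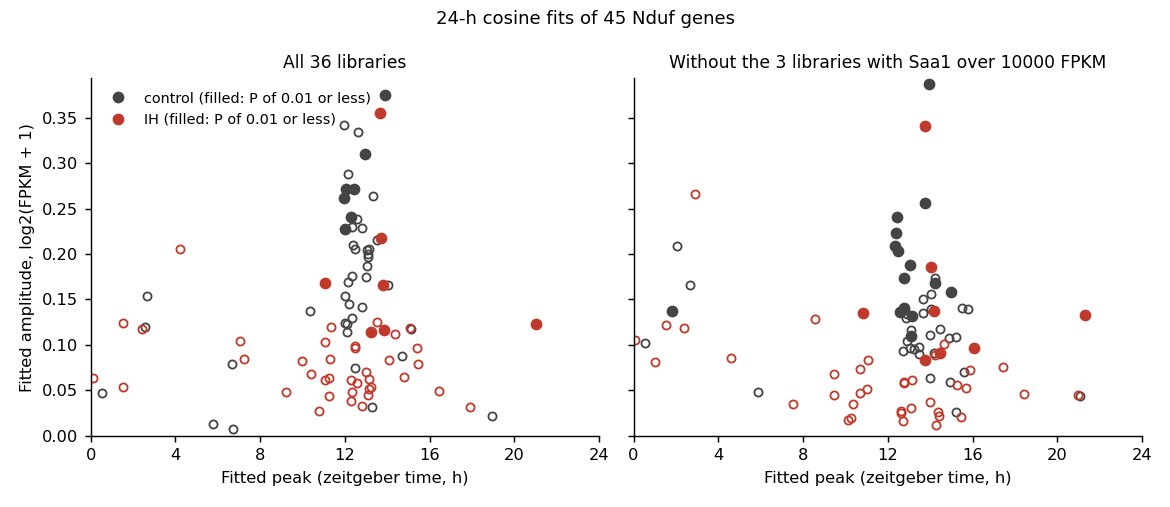
Fitted peak time (h of Zeitgeber time) against fitted amplitude (log2 units) of the 24-h cosine for the 45 members in control and IH, with all libraries (left) and without the 3 with Saa1 above 10000 FPKM (right). Filled points have a nominal P of 0.01 or less. With all libraries most peaks lie between ZT10 and ZT16 (38 in control, 33 in IH), and the amplitudes have a median of 0.176 in control and 0.082 in IH.

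Differences among the 6 time points were also tested without a fixed shape. The limma F test with an adjusted p under 0.05 called 16 of 45 members (35.6%) in control, against 21.5% of all genes, and 4 (8.89%) in IH, against 49.0%. Without the high-Saa1 libraries it called 26 (57.8%) in control, against 41.0%, and 8 (17.8%) in IH, against 50.2%. The order of the conditions depended on the scaling, since with the median of ratios 9 members were called in control, against 25.7% of all genes, and 15 in IH, against 50.4%. The control calls held 6 of the 11 distal arm members (among them Ndufb2, Ndufb6, Ndufb8, Ndufb10 and Ndufb11), 2 of the 7 assembly factors and 2 of the 7 core subunits, and without the 3 libraries these counts were 10, 4 and 3. The fold between the highest and the lowest group mean had a median of 1.58 in control, with a range of 1.13 to 2.64, and of 1.15 in IH, with a range of 1.05 to 2.48. Without the 3 libraries the medians were 1.33 and 1.12. In control the highest mean was at ZT12 for 39 members and the lowest at ZT4 for 35, and without the 3 libraries these counts were 38 and 35. In IH the highest mean was at ZT16 for 22 members, at ZT8 for 9 and at ZT12 for 8.

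The 4 members called in IH were Ndufaf4, Ndufaf6, Ndufs3 and Ndufa4l2. Ndufa4l2 (chr10:127514967-127517154, plus strand) was at 3.28, 3.06 and 2.75 FPKM at ZT4 and 1.42, 0.949 and 1.30 FPKM at ZT12 in IH (adjusted p = 0.00709 for the 6 times). Its IH mean was highest at ZT4, inside the daily hypoxia window, and lowest at ZT12, after it. In control it was at 1.85, 2.69 and 2.41 FPKM at ZT4 and 1.50, 2.47 and 1.57 FPKM at ZT12. Its control mean was also highest at ZT4, and the IH and control groups at ZT4 did not overlap, with IH the higher. This gene is low, so its fold changes on the log2(FPKM + 1) scale are understated.

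The direct comparison of IH with control asks whether the exposure altered the level of complex I transcripts at a given time. In a limma model of all 12 groups, 0 of 45 members were higher or lower in IH at any of the 6 times after adjustment. At ZT4, 0.885% of all genes were called higher, and 9 members were higher at an unadjusted P under 0.05, as were 12.8% of all genes. At ZT12, 0.499% of all genes were called lower, and 31 members were lower at an unadjusted P under 0.05, as were 11.7% of all genes. The lowest adjusted p was 0.0747 at ZT4, for Ndufa6, and 0.0545 at ZT12, for Ndufs8. At ZT0 and ZT8, 2 members and 1 member had an unadjusted P under 0.05, all lower, at ZT16 3 did, all higher, and at ZT20 0. Of all genes, 4.34% were lower at ZT0, 1.55% lower at ZT8, 2.47% higher at ZT16 and 3.68% higher at ZT20 at that threshold. Without the 3 high-Saa1 libraries 11 members were higher and 0 lower at that threshold at ZT0, and 11 higher and 1 lower at ZT8. At each of ZT16 and ZT20 6 members were higher. Higher genes then made up 4.51%, 6.27%, 2.92% and 7.75% of all genes at these 4 times. The median difference of the members at ZT0 was 0.004 with all libraries and 0.115 without the 3. None of the 3 is at ZT8, where the median was 0.111 with 39 of 45 above 0 in both sets. Over all time points 0 members were called, against 0.303% of genes called higher, and 3 were higher at an unadjusted P under 0.05, as were 8.44% of all genes. Without the 3 libraries 30 members were higher at that unadjusted threshold, as were 10.8% of all genes, and at ZT4 27 members were, as were 22% of all genes.

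The members leaned in opposite directions at the 2 times. At ZT4 the median IH minus control difference was 0.19 on the log2 scale, with 43 of 45 above 0, against a median of 0.07 over all genes. At ZT12 it was -0.31, with 42 of 45 below 0, against 0.03 over all genes. At ZT8, ZT16 and ZT20 it was 0.11, 0.15 and 0.09, against 0.01, 0.02 and 0.03. The size of the lean depended on the scaling. With the median of ratios it was 0.08 at ZT4, with 36 of 45 above 0, and -0.39 at ZT12. With the length and GC trend removed it was 0.11 at ZT4 and -0.12 at ZT12. Over all time points the median was 0.03, with 34 of 45 above 0. With the median of ratios it was -0.01, with 18 above 0. At ZT4 all 3 IH libraries lay above all 3 controls for 30 of 45 members, as for 26.7% of all genes. At ZT12 all 3 IH libraries lay below all controls for 9 members, as for 6.74% of all genes, and for 10 without the high-Saa1 library, as for 19.0% of all genes. The sum of the hepatocyte markers moved the same way, at 74125 to 77928 FPKM in IH and 62162 to 65874 FPKM in control at ZT4. At ZT12 it was 68031 to 73460 FPKM against 75087 to 92735 FPKM. Not all of the 10 markers did so. The IH minus control difference was higher at ZT4 than at ZT12 for 6 and lower for 4. Without the 3 high-Saa1 libraries it was higher for 7 and lower for 3. Kupffer cell markers summed to 53.7 to 99.4 FPKM in IH and 77.6 to 145.8 FPKM in control at ZT4, and to 56.6 to 76.7 FPKM against 89.8, 441 and 98.0 FPKM at ZT12. Acute phase transcripts at ZT4 summed to 10650 to 11836 FPKM in IH and to 12558, 23291 and 24538 FPKM in control, again without overlap, and Saa1 was at 2357 and 2435 FPKM in control ZT4 replicates 1 and 3 and at 57.4 FPKM in replicate 2. These libraries stay in when the 3 high-Saa1 libraries are left out. The part of these transcripts in the difference was not tested.

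Single members at these times showed how far 1 library reached. The accessory subunits with the smallest P at ZT12 beside Ndufs8 and Ndufs4 were Ndufv3, Ndufb2 and Ndufa2, with differences of -0.54 ± 0.158, -0.43 ± 0.130 and -0.81 ± 0.258 on the log2 scale (SE, adjusted p = 0.0702, 0.0738 and 0.0824). Ndufv3 was at 179, 333 and 144 FPKM in control and 149, 142 and 131 FPKM in IH, and Ndufb2 at 128, 202 and 106 FPKM in control and 102, 107 and 100.2 FPKM in IH. In each of them control ZT12 replicate 2 was the highest value, and replicate 3 of the controls lay within the IH range. Without the 3 high-Saa1 libraries the differences were -0.19, -0.17 and -0.17.

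At the remaining times the members with the smallest P kept adjusted p-values of 0.59 or more. At ZT0, Ndufa4l2 had a difference of -0.40 ± 0.172, and Ndufaf1, an early assembly factor, one of -0.20 ± 0.0953. The lowest IH value of each was in the high-Saa1 library, and without the 3 libraries the differences were -0.24 and -0.08. At ZT8, Ndufab1 and Ndufb6 had differences of 0.18 and 0.20, and Ndufaf5 one of -0.18. At ZT16, Ndufa8 was at 99.6, 105 and 103 FPKM in control and 116, 121 and 137 FPKM in IH (0.28 ± 0.127), without overlap, and Ndufb8 and Ndufaf6 had differences of 0.25 and 0.23. At ZT20, Ndufs5 had a difference of -0.32 ± 0.217, Ndufa7 one of 0.17 ± 0.120 and Ndufv2 one of 0.16 ± 0.115.

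Without the 3 high-Saa1 libraries, none of which is at ZT4, the standard errors were smaller (0.0794 against 0.113 on the log2 scale for Ndufa6) and 10 members (22.2%) rose at ZT4 in IH, against 7.96% of all genes. These were Ndufa4, Ndufa5, Ndufa6, Ndufa8, Ndufab1, Ndufb11, Ndufb5, Ndufb6, Ndufc2 and Ndufs4. The largest difference was that of Ndufa6 (chr15:82350140-82354322, minus strand), an accessory subunit of the Q module that holds the acyl carrier protein, at 0.40 ± 0.0794 on the log2 scale (SE, adjusted p = 0.0048). It was followed by Ndufab1 (chr7:122085403-122101886, minus strand), the acyl carrier protein itself, at 0.32 ± 0.0735 (adjusted p = 0.0122). At ZT12, 0 members were called lower, against 0% of all genes. By limma 5 members were lower at an unadjusted P under 0.05, as were 10.9% of all genes, and the median difference was -0.12 with 42 of 45 below 0. Over all time points 2 members were called higher, against 1.19% of all genes. They were Ndufa8 at 0.16 (adjusted p = 0.0097) and Ndufb6 at 0.15 (adjusted p = 0.0421), accessory subunits of the membrane arm.

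**Figure D5:**
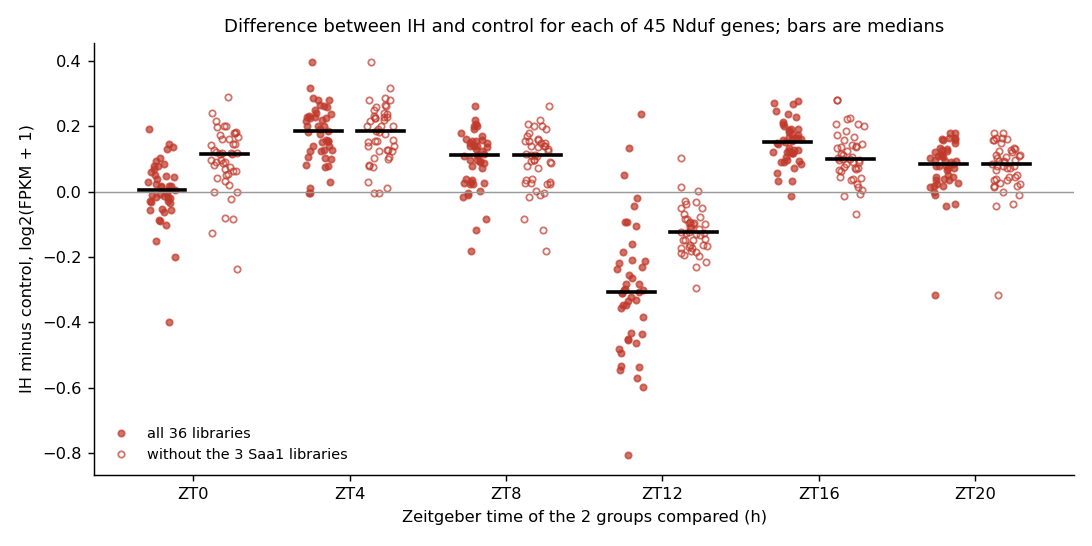
IH minus control difference of log2(FPKM + 1) at each Zeitgeber time for the 45 members, with all libraries and without the 3 libraries with Saa1 above 10000 FPKM. The median lies at 0.19 at ZT4 in both sets and at -0.31 at ZT12 with all libraries and -0.12 without the 3.

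Because the lean turned between ZT4 and ZT12, the difference between the times was tested directly, as IH minus control at ZT4 minus IH minus control at ZT12, a contrast chosen after the data were seen. It was above 0 for 44 of 45 members, with a median of 0.49 against 0.03 over all genes. It was called higher for 10 members (22.2%), against 3.87% of all genes, and lower for 0. Without the 3 high-Saa1 libraries 17 members were called, against 11.7% of all genes, with a median of 0.30 and all 45 above 0, against 0.10 over all genes. Without control ZT12 replicate 2 alone 9 were called, against 8.29% of all genes. The count depended on the scaling, and it was 1 after scaling by the median of ratios (median 0.47), against 2.45% of all genes, which is no more than the background. It was 3 after the length and GC trend was removed (median 0.27), against 2.57% of all genes. A limma test of time point by condition, over all time points and not only ZT4 and ZT12, was also run. It called 0 of 45 members at an adjusted p under 0.05, against 0.136% of all genes.

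Among the 10 called members Ndufs4 had the largest shift, 0.73 ± 0.174 (SE, adjusted p = 0.0159), while Ndufa2, Ndufb7, Ndufb10 and Ndufa11, which were not called, had larger values of 1.01, 0.81, 0.76 and 0.75. Its values at ZT4 were 29.1, 29.1 and 26.1 FPKM in control and 34.8, 33.0 and 35.2 FPKM in IH. At ZT12 they were 41.1, 68.6 and 37.1 FPKM in control and 35.0, 33.3 and 34.4 FPKM in IH. The groups did not overlap at either time, and the order turned. The IH libraries stayed between 33.0 and 35.2 FPKM at both times, while the control libraries did not.

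Ndufa6 gave 0.70 ± 0.160 (adjusted p = 0.0137). At ZT4 it was at 228, 246 and 206 FPKM in control and 281, 306 and 308 FPKM in IH. At ZT12 it was at 356, 374 and 292 FPKM in control and 291, 270 and 264 FPKM in IH. The groups did not overlap at either time, the high-Saa1 library was close to replicate 1 of its group, and without the 3 libraries the shift was 0.63 ± 0.119 (adjusted p = 0.0032). Its promoter carries the NRF1 core printed above, as does that of Ndufaf4, whose course was alike in both conditions.

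Ndufc2 gave 0.48 ± 0.125 (adjusted p = 0.0253), from 85.1, 87.8 and 78.8 FPKM in control and 97.3, 97.5 and 99.5 FPKM in IH at ZT4. At ZT12 it was at 122, 132 and 109 FPKM in control and 95.6, 100.3 and 108 FPKM in IH. The groups did not overlap at either time. Ndufab1 gave 0.50 ± 0.131 (adjusted p = 0.0257), from 67.6, 67.5 and 62.6 FPKM in control and 78.1, 84.1 and 84.9 FPKM in IH at ZT4. At ZT12 it was at 92.1, 93.1 and 85.9 FPKM in control and 78.4, 85.0 and 74.9 FPKM in IH, again with no overlap. Ndufa4 gave 0.61 ± 0.175 (adjusted p = 0.0390). Its control libraries at ZT4, 534, 543 and 461 FPKM, lay below the IH libraries of 595, 603 and 645 FPKM. At ZT12 the control libraries of 733, 1081 and 635 FPKM and the IH libraries of 665, 615 and 596 FPKM overlapped. The other called members were Ndufa5, Ndufb2, Ndufb6, Ndufb11 and Ndufs8, so that the calls spanned the Q module (3 of 8), the distal arm (4 of 11), the N module (1 of 8), the proximal arm (1 of 9) and the Ndufa4 pair, with 0 of 7 assembly factors.

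The core subunits encoded in the nucleus showed a range of day courses. Ndufs1 had a fold between highest and lowest group mean of 1.23 in control and 1.15 in IH, and Ndufs7, an iron-sulfur core subunit beside the ubiquinone site, had 1.56 and 1.14. Ndufv1 had 1.44 and 1.14. Ndufs8, an iron-sulfur core subunit, had 1.58 in control and 1.05 in IH. Its ZT12 values were 112, 168 and 92.9 FPKM in control and 93.4, 86.5 and 83.2 FPKM in IH, which overlapped. With all libraries its ZT12 difference was -0.45 ± 0.116 (SE, adjusted p = 0.0545), and the 168 FPKM was in the high-Saa1 library. Without the 3 high-Saa1 libraries the lowest adjusted p of any member at ZT12 by limma was 0.196.

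The same contrast of ZT4 with ZT12 was also computed for other complexes of the respiratory chain and for ribosomal proteins. The median was 0.40 for complex III, 0.51 for complex IV, 0.52 for complex V, 0.51 for cytosolic ribosomal proteins and 0.30 for mitochondrial ribosomal proteins, against 0.49 for the Nduf members. It was 0.16 for complex II and 0.08 for enzymes of the citric acid cycle, with 0 of 8 and 0 of 14 called. Without the 3 high-Saa1 libraries the median was 0.25 for both of these lists, with 2 of 8 and 4 of 14 called. In that setting it was 0.30 for the Nduf members and 0.105 over all genes, and 0.34, 0.33 and 0.34 for complexes III, IV and V. For cytosolic and mitochondrial ribosomal proteins it was then 0.215 and 0.157. Called members were 0 of 9 in complex III, 3 of 12 in complex IV, 5 of 17 in complex V and 1 of 74 cytosolic ribosomal proteins, against 3.87% of all genes. They were 5, 6, 12 and 4 when the 3 high-Saa1 libraries were left out, against 11.7%. The F test over time points called 5 of 12 members of complex IV and 6 of 17 of complex V in control, and 1 and 1 in IH, against 21.5% and 49.0% of all genes. For cytosolic ribosomal proteins it called 17 of 74 in control, near that background, and 1 in IH. Other lists had more calls in IH, with 21 and 25 of 77 mitochondrial ribosomal proteins and 2 and 9 of 14 citric acid cycle genes in control and IH. Without the 3 libraries the control counts were 5, 11, 53, 38 and 8 for these lists in the same order, against 41.0% of all genes. The IH counts were 1, 2, 1, 28 and 8, against 50.2%. In this setting the 53 of 74 cytosolic ribosomal proteins in control lay above the share of all genes. No test set the Nduf members apart from these lists.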

How the data were processed

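Poly(A) RNA of 36 livers was sequenced by the authors with a stranded kit, aligned to mm10 with TopHat2 2.1.1 on Bowtie2, and quantified with Cufflinks 2.2.1, per the submitters' processing notes and the study's methods. The deposited values are FPKM, in 1 table per condition with 24883 rows and 18 libraries each. The tables use the same column names, so each library's condition came from its table and its time and replicate from the column. Read depth is unknown, so no counting interval could be given. Of 24346 symbols, 280 stood on several rows and were left out. Values were not rescaled, and genes averaging 0.1 FPKM or more (13215) were tested on log2(FPKM + 1) with limma 3.58.1 in R 4.3.3, with a mean-dependent prior, after tests on simulated data. Fits were a 24-h cosine within each condition (nominal P of 0.01), an F test over 6 time points within each condition, a cosine by condition interaction, IH minus control at each time in a model of 12 groups, and IH minus control with time as a factor. These 4 used an adjusted p (Benjamini-Hochberg over all genes) of 0.05. The paired and other fits stand under the effects of processing. The tests within a condition used its 18 libraries, and the others all 36. Members, lists and tests were chosen with earlier results of these data known, and the contrast of ZT4 with ZT12 and the trend removal without the 3 high-Saa1 libraries were chosen after seeing the data. Members with values by name were the core subunits, those with the smallest P in each test (5, or 3 at ZT0, ZT8, ZT16 and ZT20), the 3 of highest and 3 of lowest mean, and the Ndufa4 pair; 1 of these is not reported here, and others named passed a threshold. The labels do not say that same-numbered libraries share an animal or day, and p-values measure the spread between these libraries. Gene coordinates are those of mm10 and promoter letters those of RefSeq. Python 3.11.15 and pandas 2.3.3 were used for tables.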

Additional observations from a re-analysis of the deposited data

Results flagged for a closer look

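Dependence on time of the IH minus control difference was tested as the difference at ZT4 minus that at ZT12, and 10 members passed an adjusted p of 0.05 by limma, all higher at ZT4. The values on the log2 scale were 0.731 for Ndufs4, 0.698 for Ndufa6, 0.665 for Ndufa5, 0.655 for Ndufb2, 0.612 for Ndufa4, 0.58 for Ndufs8, 0.567 for Ndufb6, 0.503 for Ndufb11, 0.502 for Ndufab1 and 0.481 for Ndufc2. The contrast was chosen after the data were seen. Among all genes 3.87% passed in this direction. Without the 3 high-Saa1 libraries all 10 still passed, against 11.7% of all genes, with values of 0.466 for Ndufs4, 0.627 for Ndufa6, 0.430 for Ndufa5, 0.390 for Ndufb2, 0.390 for Ndufa4, 0.340 for Ndufs8, 0.386 for Ndufb6, 0.336 for Ndufb11, 0.480 for Ndufab1 and 0.420 for Ndufc2. The test of time point by condition, over all time points and with all libraries, called 0 members, against 0.136% of all genes. Groups of 3 libraries are too small for a search for single outlying libraries.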

How the results depend on the processing

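Depth is unknown for FPKM values, so the precision rests on 3 libraries per group, and 1 library, control ZT12 replicate 2, carried much of the spread. Members with the smallest P in a test, or past its threshold, were followed over 15 settings and with 36 single libraries left out. Of 3446 values, 3109 kept their side of the threshold, 298 fell below it and 39 passed it. Direction was followed only for IH minus control and for the contrast of ZT4 with ZT12, and 0 turned. The counts of members called moved more, and the causes were not tested. Rhythm in control (7) was 12 with quantile normalization, 16 after removal of the length and GC trend, 12 with sample weights, 15 without the 3 high-Saa1 libraries, 17 with a spread shared by all libraries and 25 with the trend and those libraries removed together. All genes were called at 21.8%, 23.4%, 31.6%, 27.4%, 28.5% and 31.4% in those settings, in the same order, and at 20.0% in the main fit. Rhythm in control was called for 3 to 12 members when a single library was left out, lowest without control ZT12 replicate 1. Shares of all genes are not given here for counts at another threshold or without single libraries. Rhythm in IH (7) was 23 after scaling by the median of ratios, 16 with quantile normalization, 14 after trend removal, 12 with the trend and the 3 libraries removed, 3 with a shared spread, 11 by an adjusted p of 0.05, and 5 to 10 without single libraries. From the median of ratios to the shared spread, all genes were called at 40.2%, 39.1%, 39.9%, 41.7% and 31.5%, and at 39.9% in the main fit. Differences among time points in control (16) were 7 with a common sum, 9 with the median of ratios, 27 with weights, 26 without the 3 libraries, 33 with a shared spread, 27 with trend and libraries removed, and 6 to 33 without single libraries (6 without control ZT4 replicate 3, 33 without control ZT12 replicate 3). From the common sum to the joint removal, all genes were called at 15.4%, 25.7%, 58.6%, 41.0%, 42.1% and 44.3%, and at 21.5% in the main fit. Differences among time points in IH (4) were 15 with the median of ratios, 12 with quantile normalization, trend removal or weights, 8 without the 3 libraries, 13 with trend and libraries removed, and 3 to 10 without single libraries. All genes were called at 50.4%, 49.1%, 50.7%, 62%, 50.2% and 51.2% in these settings, and at 49.0% in the main fit. Higher at ZT4 (0) became 20 with weights (19.1% of all genes), 10 without the 3 libraries (7.96%), 3 from the 6 libraries alone (4.02%), 5 with trend and libraries removed (4.06%), 2 at a nominal P of 0.01, and 0 to 5 without single libraries. Lower at ZT12 (0) became 1 among genes averaging 1 FPKM or more (0.774% of these genes), 16 at a nominal P of 0.01, and 0 to 31 without single libraries (17 without control ZT12 replicate 1, 31 without replicate 3). Higher at ZT16 (0) became 1 with weights (0.166% of all genes). Higher over all times (0) became 3 with weights (1.96%), 2 without the 3 libraries (1.19%), 1 with trend and libraries removed (1.08%), and 0 to 1 without single libraries. The shift between ZT4 and ZT12 (10) became 3 with a common sum, 1 with the median of ratios, 1 with quantile normalization, 3 after trend removal, 17 without the 3 libraries, 5 with trend and libraries removed, 22 at a nominal P of 0.01, and 2 to 32 without single libraries (32 without control ZT12 replicate 3). From the common sum to the joint removal, all genes were called at 0.84%, 2.45%, 2.86%, 2.57%, 11.7% and 6.05%, and at 3.87% in the main fit. The rhythm difference stayed at 0 in each setting. These settings include the test of time point by condition in place of the cosine, which called 0.136% of all genes.

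Same-numbered libraries of IH and control correlated in their deviations with a mean r of 0.05, and 6 of 18 pairs exceeded 0.1. The pairs at ZT12 were at 0.29, 0.27 and 0.14. Whether same-numbered libraries shared a day at some times was not tested, and the main fits did not pair them. With a replicate block the counts were 7 for rhythm in control, 6 for rhythm in IH, 18 and 4 for time points in control and IH, 9 for the shift between ZT4 and ZT12, and 0 for the other comparisons. From rhythm in control to the shift, all genes were called at 18.3%, 38.7%, 17.9%, 48.4% and 3.28%.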

Other observations

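Complex I also needs assembly factors whose names do not start with Nduf, and 11 of 14 such genes on the list were tested. Of these, 6 differed among time points in IH (adjusted p under 0.05 by limma) and 0 in control, against 49.0% and 21.5% of all genes. The counts were 8 and 4 without the 3 high-Saa1 libraries, against 50.2% and 41.0%. Foxred1, a flavoprotein needed for late assembly, had IH means between 11.1 FPKM at ZT4 and 16.7 FPKM at ZT12 (adjusted p = 0.000336). Tmem126a ran between 32.3 FPKM at ZT4 and 39.9 FPKM at ZT12 (adjusted p = 0.00106), and Ecsit, a part of the early assembly complex, between 21.4 FPKM at ZT4 and 26.8 FPKM at ZT12 (adjusted p = 0.0122). Acad9, which works beside Ecsit and also has a role in fatty acid oxidation, had its highest IH mean, 7.34 FPKM, at ZT4 and its lowest, 5.52 FPKM, at ZT12 (adjusted p = 0.00895). The cosine by condition test called 0 of these 11, against 0% of all genes, so it cannot set them apart from other genes.

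Of 14 regulators of respiratory chain genes, 9 differed among time points in IH and 2 in control, against 49.0% and 21.5% of all genes, and without the 3 high-Saa1 libraries 9 and 7, against 50.2% and 41.0%. Gabpb1, a subunit of the ETS factor whose core motif was searched above, differed among time points in control (adjusted p = 0.00374) and in IH (adjusted p = 0.00122), with IH means of 4.25 FPKM at ZT4 and 2.28 FPKM at ZT16. Esrra, the estrogen-related receptor alpha, differed among time points in both conditions (adjusted p = 0.00479 in control and 0.0150 in IH). Nrf1 and Ppargc1a did not pass in either condition, with adjusted p-values of 0.371 and 0.339 in IH.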
